A study of Mus musculus with 12 samples.

Results

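In E15.5 mouse cortex, 580 regions carried a peak of histone H3 lysine 27 acetylation (H3K27ac) in all 3 wild-type (WT) libraries and in none of the 3 libraries from conditional Prdm16 knockouts (cKO), once every peak list was shortened to the same length. They were found by ranking the peaks of each deposited list by -log10 p, the peak caller's measure of how unlikely a peak is under its background. From every list as many top-ranked peaks were kept as the shortest list (WT replicate 3) holds, and kept peaks that overlapped or touched were merged. This gave 63851 regions, of which the WT-only regions made up 0.908%. The mirrored rule gave 630 cKO-only regions (0.987%), and 34569 regions had a peak in all 6 lists. The presence and absence of peaks chose these regions, so their number and their strength in WT against cKO are descriptions with no test.

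The WT embryos carried Prdm16 flox/flox without Cre, and the cKO embryos carried Emx1Ires-Cre together with Prdm16 flox/flox. Both genotypes therefore share the floxed allele. Chromatin came from whole cortex lysate, and each genotype had 3 H3K27ac libraries. The peak names carry library identifiers, by which replicates 1 and 2 of each genotype form a library batch A and the replicates 3 a batch B. Whether replicates were separate embryos, litters or pools is not given, so their spread may be technical. Emx1 is active in dorsal forebrain progenitors, and Emx1Ires-Cre recombines in them and their progeny. Interneurons, vessels and microglia of the same cortex come from other lineages. In such a lysate, fewer cells of a type and less acetylation per cell cannot be told apart. A list of H3K27ac peaks does not check the deletion.

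H3K27ac is laid down by the acetyltransferases CBP and p300 at active promoters and enhancers. Promoters tend to keep the mark in many cell types, while enhancers are more often acetylated in a single lineage or stage. PRDM16 is a zinc-finger chromatin regulator of the PR-domain family that is expressed in cortical radial glia, the neural stem cells of the cortex. The tissue label was checked at gene ends: of 8 cortex genes, 7 had a peak over a gene end in all 6 equal-length lists, among them Emx1, Emx2, Pax6, Eomes, Tbr1 and Neurod6, and 1 had none in any. Of 23 vascular, microglial and meningeal marker genes, 3 to 4 had such a peak in each library and 17 had none in any. Of 11 oligodendrocyte lineage genes, 2 to 3 had one and 7 had none in any.

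Few WT-only regions reached a promoter. In the RefSeq promoter windows of protein-coding genes (GRCm38.p6, 250 bases before to 50 after the start), 9 windows of 9 genes were touched by a WT-only region. The 4 printed here, 5′ to 3′ with CG sites in capitals, lie wholly or partly in a WT-only region. The first pair had no peak at all in the deposited cKO lists. The second pair had a weaker peak in all 3 of them.
Slco1c1: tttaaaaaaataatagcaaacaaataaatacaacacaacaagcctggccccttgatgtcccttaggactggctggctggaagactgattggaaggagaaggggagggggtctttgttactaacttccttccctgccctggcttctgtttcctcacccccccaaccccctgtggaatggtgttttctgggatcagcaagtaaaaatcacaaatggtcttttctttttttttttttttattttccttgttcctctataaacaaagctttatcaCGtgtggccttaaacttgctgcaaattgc
Slc29a1: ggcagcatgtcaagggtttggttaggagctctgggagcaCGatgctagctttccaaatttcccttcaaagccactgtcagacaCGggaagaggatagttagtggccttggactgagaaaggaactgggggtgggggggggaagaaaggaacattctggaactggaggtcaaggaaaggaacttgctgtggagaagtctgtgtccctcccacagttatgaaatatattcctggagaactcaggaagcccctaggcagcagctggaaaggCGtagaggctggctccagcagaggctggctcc
B3gnt8: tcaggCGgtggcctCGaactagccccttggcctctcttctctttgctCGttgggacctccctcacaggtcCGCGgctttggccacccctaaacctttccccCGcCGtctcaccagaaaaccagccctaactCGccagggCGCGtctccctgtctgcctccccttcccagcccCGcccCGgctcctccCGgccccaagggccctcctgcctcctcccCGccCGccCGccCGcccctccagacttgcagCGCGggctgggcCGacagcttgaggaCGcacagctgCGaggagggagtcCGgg
Pifo: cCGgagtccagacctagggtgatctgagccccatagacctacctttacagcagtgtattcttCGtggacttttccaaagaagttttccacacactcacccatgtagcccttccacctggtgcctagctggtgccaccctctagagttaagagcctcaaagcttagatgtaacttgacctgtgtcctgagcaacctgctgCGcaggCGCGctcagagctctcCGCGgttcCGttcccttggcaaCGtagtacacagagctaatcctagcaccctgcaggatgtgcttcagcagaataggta
Slco1c1 encodes a transporter of thyroid hormone and organic anions found at brain barriers, and its window (chr6:141524104-141524403, plus strand) held 1 CG site. Slc29a1 encodes an equilibrative nucleoside transporter, and its window (chr17:45592888-45593187, minus strand) held 3 CG sites, with 211 of the 300 bases inside the region. B3gnt8 encodes a glycosyltransferase (chr7:25627374-25627673, plus strand, 23 CG sites), and Pifo is a gene of primary cilium disassembly (chr3:106001448-106001747, minus strand, 9 CG sites). The -log10 p values in WT replicates 1, 2 and 3 were 6.43, 5.41 and 4.17 at Slco1c1 and 4.80, 6.26 and 4.55 at Slc29a1. At B3gnt8 they were 5.31, 6.17 and 5.33, against 3.86, 3.68 and 4.07 in cKO replicates 1, 2 and 3. At Pifo the WT values were 4.76, 6.74 and 4.03 and the cKO values 4.05, 3.95 and 3.999, so the lowest WT value and the highest cKO value all but coincide. Lists differ in their scale, and it is the rank within each list that sets membership. The other windows were those of 1700013G24Rik, Fhl1, Efcc1, Rnase13 and Slc2a5, a fructose transporter gene. Across the 9 windows the median was 4 CG sites, and 6 (66.7%) held fewer than 10, against 43.2% of all windows and 36.4% of those of cKO-only regions. The median was 22 in 12005 windows touched by regions of all 6 lists, 15 in 11 windows of cKO-only regions, 14 in 98 windows of regions found in 3 lists of both genotypes, and 13 in all 21263 windows. With 9 windows the difference was not tested.

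The WT-only regions were weak in every WT list. The median rank of their strongest peak, where rank 1 is the highest -log10 p of a list, was 39034 in WT replicate 1, 39540.5 in replicate 2 and 39207.5 in replicate 3. Regions of all 6 lists had median ranks of 17370 to 17578 in these lists. The best rank of any WT-only region was 16664 (WT replicate 2), and those in replicates 1 and 3 were 17307 and 17379. In the lower-ranked portion of the equal-length list, past rank 24084, lay 97.2%, 98.1% and 94.5% of the WT-only regions in WT replicates 1, 2 and 3, against 31.7 to 32.9% of the regions of all 6 lists. The cKO-only regions had, in the cKO lists, median ranks of 38594.5, 37872 and 38049, and 96.2%, 95.7% and 95.7% of them lay past rank 24084. Of the regions in 3 lists of both genotypes with a deposited peak in WT replicates 1, 2 and 3, 98.9%, 99.1% and 98.8% lay past rank 24084. In replicates 1 and 2 these peaks run on to ranks 66482 and 75547, beyond the equal-length list. Those 2 shares are therefore not like the ones above, while the deposited list of replicate 3 ends at the limit. A low rank was thus not particular to WT-only regions. The fold enrichment of the WT-only peaks, the authors' own value, had a median of 4.03, 4.05 and 4.16 in the WT lists.

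**Figure D1:**
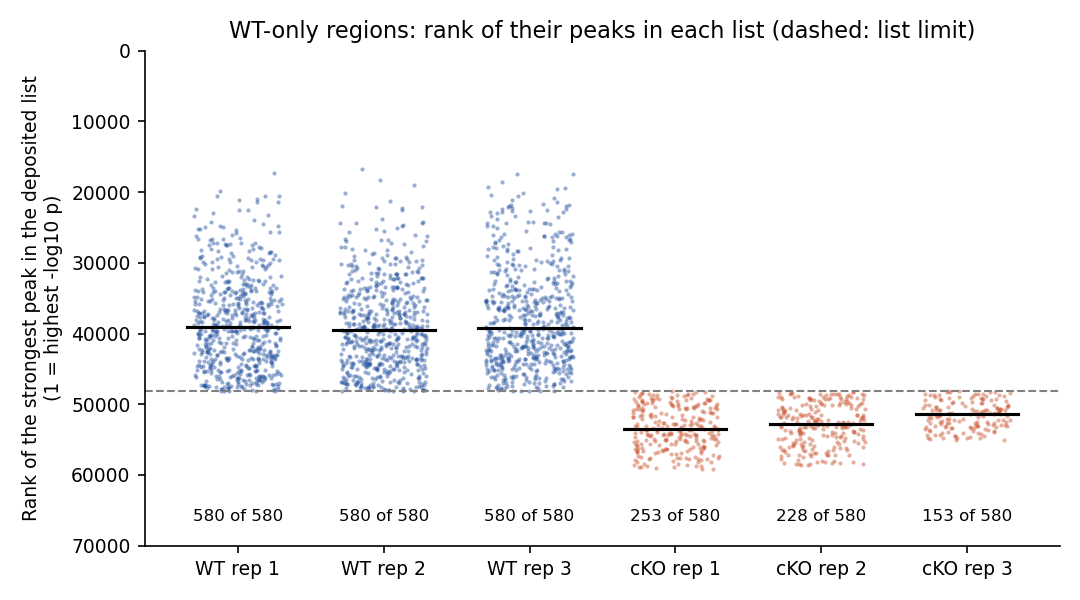
Rank of the strongest deposited peak over each of the 580 WT-only regions, by library. Each point is a region, bars are medians, the y axis is inverted and the dashed line is the limit set by the shortest list. The counts give how many regions have any peak in that deposited list: all 580 in each WT list, and 253, 228 and 153 in cKO replicates 1, 2 and 3.

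Many WT-only regions had a cKO peak below the limit. The deposited cKO lists go on past the limit by 11041, 10514 and 6847 peaks, and 365 of the 580 regions (62.9%, exact Clopper-Pearson 95% interval 58.9 to 66.9%) were overlapped by a peak in at least one of these weaker parts. By library the counts were 253 (43.6%), 228 (39.3%) and 153 (26.4%) in cKO replicates 1, 2 and 3, in the order of how far each list continues. The median ranks of these peaks were 53485, 52853.5 and 51403, in lists of 59209, 58682 and 55015 peaks. A weaker peak was present in a single cKO list for 174 regions, in a pair of lists for 113 and in all 3 for 78. The remaining 215 regions (37.1%, 33.1 to 41.1%) had no peak in any deposited cKO list. Where a weaker peak was present, it covered a median of 48.8%, 44.5% and 46.5% of the region in cKO replicates 1, 2 and 3, against 83.1%, 92.6% and 52.1% in the WT libraries. WT replicate 3 thus covered little more of a region than those cKO peaks did. It also covered the least of the regions of all 6 lists, a median of 65.2% against 81.5%, 79.3% and 73.8% in cKO replicates 1, 2 and 3. WT-only regions are merged from WT peaks alone, so their extent was set by the WT lists. For cKO-only regions, 529 of 630 (84.0%) had a weaker WT peak. The WT lists of replicates 1 and 2 go on for 18325 and 27395 peaks and that of replicate 3 for 0, so the shares are not comparable.

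The median width of the 215 regions with no deposited cKO peak was 790 bp, against 939.5, 1015 and 1170 bp for regions with a peak in 1, 2 and 3 deposited cKO lists. Within 2 kb of a gene end lay 2.79% of the regions with none, and 3.45%, 8.85% and 10.3% of those with a peak in 1, 2 and 3 lists. The share that overlapped a gene body was 42.3% with none and 50%, 60.2% and 55.1% with 1, 2 and 3, so it did not follow the number of lists throughout. The median rank in WT replicate 1 was 39037 for the 215 regions and 38051.5 for the 78. In WT replicate 3 it was 37406 and 40468. The part of region width in these counts was not tested.

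Strength is here the lowest -log10 p of a region over the WT lists, although the lists differ in scale. The strongest WT-only region lay inside Thsd7b, a thrombospondin-domain gene, at chr1:129897638-129898524 (mm10). Its peak ranked 23432, 25262 and 17379 in WT replicates 1, 2 and 3 (-log10 p 9.28, 9.68 and 11.6), and no deposited cKO list had a peak there. The second lay inside Cacna2d1, which encodes an auxiliary subunit of voltage-gated calcium channels (chr5:16293673-16295375). It had -log10 p values of 8.11, 9.12 and 8.996 in the WT lists and weaker cKO peaks of 3.37 and 3.74 in replicates 1 and 2. Its WT ranks were 26576, 26705 and 22366.

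Of the 15 strongest regions, 5 lay inside a protein-coding gene and 4 were more than 100 kb from any. Those inside genes were in Thsd7b, Cacna2d1, the cAMP phosphodiesterase gene Pde4d, the F-box gene Fbxw4 and Lrpprc, a gene of mitochondrial RNA handling. The distant ones had Ctnnd2 (a delta-catenin gene, 734212 bp away), the ephrin receptor gene Epha7 (867125 bp), the transcription factor gene Tfap2d (344099 bp) and the co-regulator gene Cited2 (326557 bp) as nearest genes. Others were nearest to Lamtor5, Ift43, Zfp706, Cytip and Rnf212. No deposited cKO list had a peak at 5 of the 15, those at Thsd7b, Fbxw4, Epha7 and Tfap2d among them, and all 3 had a weaker one at Pde4d, Ift43 and Cytip. At Ctnnd2 the WT replicates differed widely, with -log10 p of 7.36, 15.1 and 8.18.

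**Figure D2:**
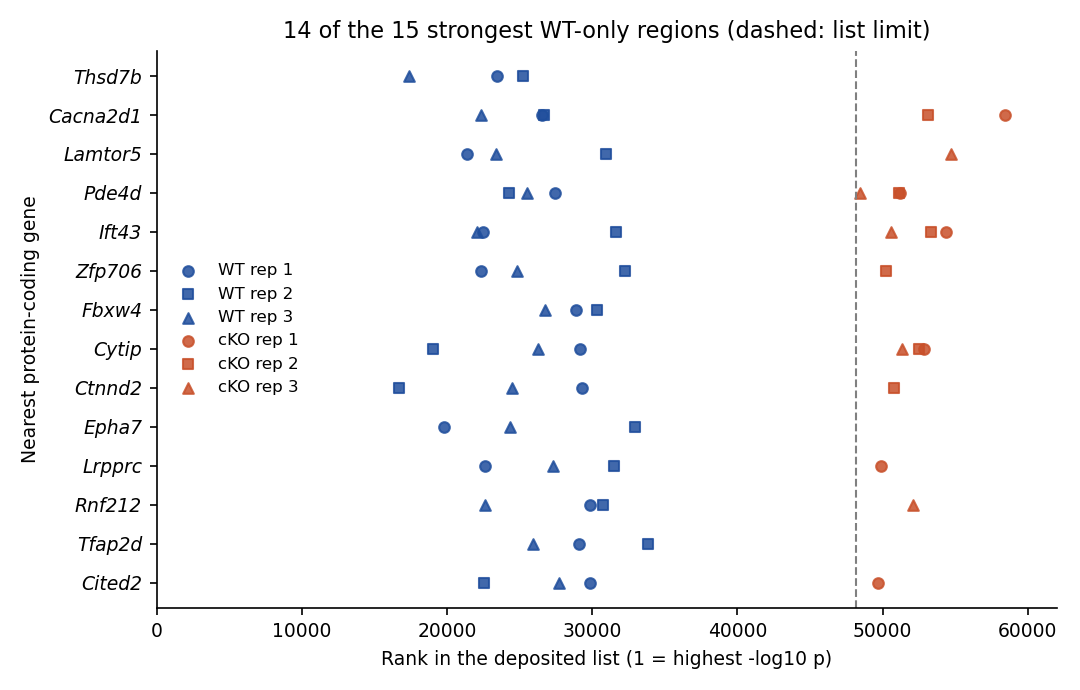
Ranks in the deposited lists of 14 of the 15 strongest WT-only regions, named by the nearest protein-coding gene. Blue symbols are WT and orange symbols cKO libraries, symbol shapes are replicates, and the dashed line is the limit set by the shortest list. WT ranks run from 16664 to 33848. A missing orange symbol means that the deposited cKO list has no peak there.

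The regions at the limit show how it sets membership. A region inside Lingo1 was a member through the very last peak of the WT replicate 3 list (-log10 p 3.12), and one inside Xylt1 because its cKO replicate 1 peak ranked 48180. Just outside, a region inside Supt3 missed by its cKO replicate 2 peak at rank 48165, and one inside Tecta by its WT replicate 2 peak at rank 48191. In all, 139 of the 580 members (24.0%) were within 1000 ranks of leaving, and 130 other regions within 1000 ranks of joining.

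Both the number of WT-only regions and which regions they were varied with the list length. With 30000 and 40000 peaks per list there were 365 and 495 WT-only regions, a share of merged regions (0.945% and 0.937%) close to that of the equal-length lists used here. They shared 8 and 136 regions with the 580 (1.38% and 23.4% of the 580, 2.19% and 27.5% of the others). In the lists as deposited there were 779 WT-only regions (0.907%) and 298 cKO-only regions (0.347%), and the 779 shared with the 580 the 215 that have no deposited cKO peak (27.6% of the 779). At 30000 peaks, 99.5% of the WT-only regions had a peak elsewhere in a deposited cKO list and 87.4% had one in all 3. Of the 580, 288 (49.7%) were WT-only at none of the other 3 lengths. The strongest Thsd7b region was 1 of 2 that were WT-only at all 4 lengths. Of the 580, 59 were WT-only both at 40000 peaks and in the deposited lists, a count made after the data were seen. Among these, picked after their values were seen, were regions inside Ntn4 (a netrin gene), Grin2a (an NMDA receptor subunit gene), Robo1 (a Slit receptor gene), Flrt2, Dab1 (a Reelin signalling adaptor gene) and the homeobox gene Meis1. Regions inside Fbxw4, Ghr, Acaca, Mcur1 and Rnf123 were among them as well, so the genes picked do not stand for the 59.

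**Figure D3:**
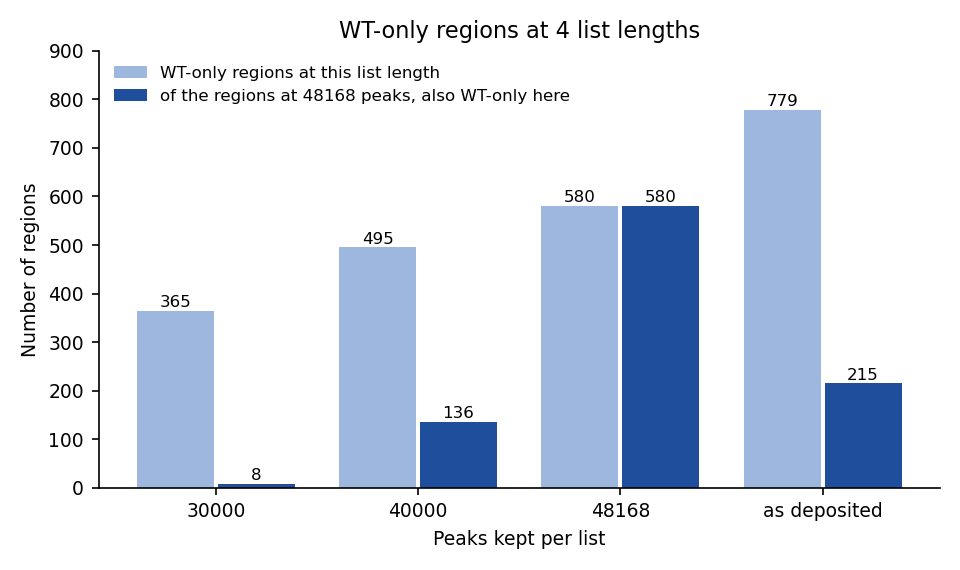
Number of WT-only regions when 30000, 40000 or as many peaks as the shortest list holds are kept per list, or the lists are used as deposited (light bars), and how many of the 580 regions are WT-only there too (dark bars). The dark bars are 8, 136, 580 and 215.

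Leaving out a library relaxes the rule and raised the count. Dropping a WT list gave 1046 (replicate 1), 1053 (replicate 2) and 1192 regions (replicate 3). Dropping a cKO list gave 974, 880 and 929 in the same order. The cKO-only counts under these settings were 945, 1019 and 994, and 1079, 1068 and 1111. Within batch A there were 1745 WT-only and 1646 cKO-only regions, and batch B has a single library of each genotype.

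Libraries left out of the choice of regions gave a further comparison, although WT replicate 3 set the length of the equal-length lists. Each same-numbered pair of libraries was set aside in turn, WT-only regions were chosen by the same rule in the other 2 pairs, and the held-out equal-length lists were then read. Without pair 1 the rule chose 1626 regions (2.7% of those merged), and 987 of them (60.7%, exact 95% interval 58.3 to 63.1%) had a peak in WT replicate 1, against 580 (35.7%, 33.3 to 38.1%) in cKO replicate 1. Without pair 2 it chose 1505 (2.5%), with 59.3% (56.7 to 61.8%) in WT and 30.03% (27.7 to 32.4%) in cKO. Without pair 3, which is all of batch B, it chose 1745 (2.87%), with 53.2% (50.8 to 55.5%) in WT and 31.7% (29.5 to 33.9%) in cKO. The WT list held more of them in all 3 pairs, by 25.03, 29.2 and 21.5 percentage points. Regions chosen as cKO-only (2.59%, 2.73% and 2.71% of those merged) went the other way, by -30.5, -27.4 and -27.6 points. Regions with a peak in 1 WT and 1 cKO list differed by 0.346, 3.48 and -1.23 points. The 3 choices share libraries and the intervals cover counting error over regions, so no test was made over the pairs. Of the regions chosen as WT-only without pairs 1, 2 and 3, 586, 593 and 580 had a held-out peak in WT alone. A held-out peak in cKO alone was found at 179, 153 and 205. Those with WT alone meet nearly the same rule as the 580 members, so the differences are no support independent of that rule. In the lists as deposited the difference was 41.3, 59.5 and 0.878 points. There the held-out lists differ in length, and in pair 3 all merged regions were found less often in WT than in cKO, by -7.36 points.

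**Figure D4:**
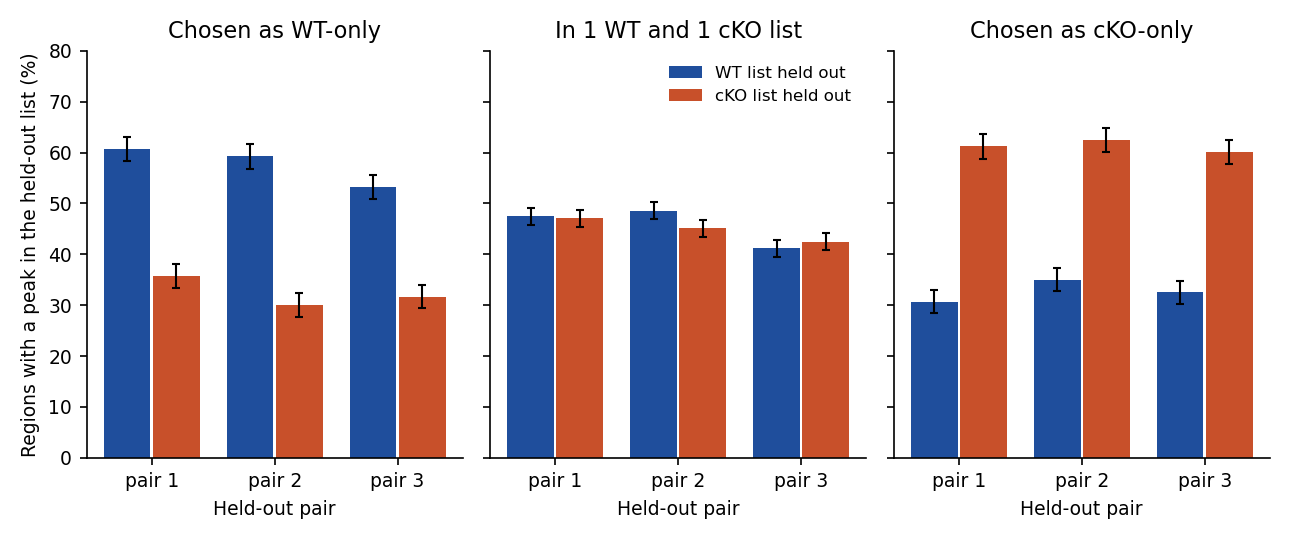
Share of regions with a peak in a held-out equal-length list, for regions chosen in the other 2 pairs as WT-only, as present in 1 WT and 1 cKO list, or as cKO-only. Blue bars are the held-out WT and orange bars the held-out cKO library, with exact 95% intervals over regions. WT bars stand at 53.2 to 60.7% and cKO bars at 30.03 to 35.7% in the first panel.

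The median width of WT-only regions was 954.5 bp, with quartiles of 673.75 and 1277.25 bp and a range of 201 to 4053 bp. Regions of all 6 lists had a median of 1754 bp, cKO-only regions 857 bp and regions in 3 lists of both genotypes 713 bp. The peaks themselves were narrower in WT replicate 3 (median 404.5 bp) than in replicates 1 and 2 (699.5 and 791 bp). The widest lay inside Pmepa1, a gene of a TGF-beta signalling inhibitor (4053 bp, chr2:173235243-173239295), followed by Elk3, an ETS factor gene (3054 bp), Chrnb2, a nicotinic receptor subunit gene (2938 bp), Lrmda (2922 bp) and the receptor phosphatase gene Ptprt (2907 bp). Those at Lrmda and Ptprt had no deposited cKO peak. Those at Elk3 and Chrnb2 had a weaker one in all 3 cKO lists.

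No more than 2 kb from the start or end of a protein-coding gene were 30 of 580 (5.17%, 3.52 to 7.30%), against 35.1% of regions of all 6 lists, 6.35% of cKO-only regions and 7.91% of regions in 3 lists of both genotypes. The low share was thus seen in each of these weaker classes. The median distance to a gene end was 50537.5 bp, compared with 35712.5 bp for cKO-only regions and 13301 bp for regions of all 6 lists. More than 100 kb from any gene body were 125 regions (21.6%, 18.3 to 25.1%), against 13.7% (11.1 to 16.6%) of cKO-only regions, 16.8% (15.52 to 18.1%) of regions in 3 lists of both genotypes and 10.9% of regions of all 6 lists. A gene body was overlapped by 289 (49.8%, 45.7 to 54.0%), against 58.1% (54.1 to 62.0%) of cKO-only regions and 56.7% of regions in 3 lists of both genotypes. Of all merged regions, 62.5% overlapped a gene body, 22.5% lay within 2 kb of a gene end and 13.6% lay more than 100 kb from any gene body. The intervals treat regions as independent and no test was made.

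**Figure D5:**
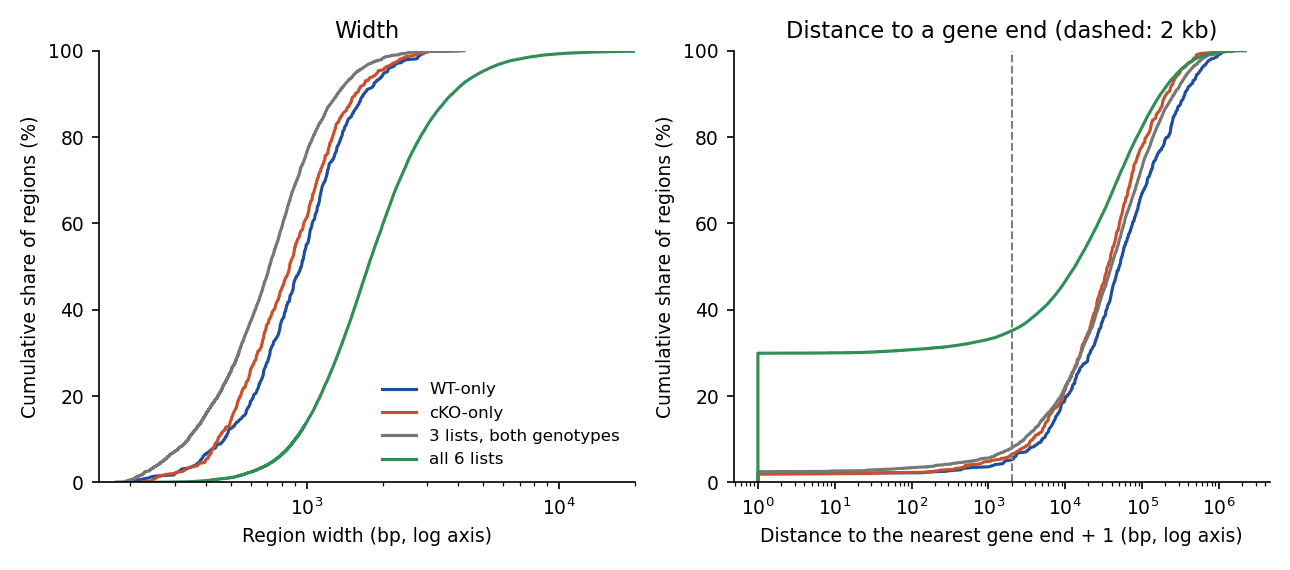
Cumulative share of regions by width (left) and by distance to the nearest protein-coding gene end (right), both on log axes, for WT-only, cKO-only, 3-list regions of both genotypes and regions of all 6 lists. The dashed line marks 2 kb. The WT-only curve reaches 5.17% there and that of all 6 lists 35.1%.

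Among the 30 regions near gene ends, the strongest was 440 bp from Ift43, a gene of intraflagellar transport. It was followed by Rnf212 (1165 bp), Ccdc54 (439 bp), the antiviral gene family member Oas1f (1584 bp), Fads1 (a fatty acid desaturase gene, 1212 bp) and Meis1 (1603 bp from a gene end, inside the gene, chr11:18882032-18884133). The Meis1 region had -log10 p of 9.49, 9.30 and 5.61 in the WT lists and no deposited cKO peak. Regions at Dab2ip, 1700013G24Rik, B3gnt8 and Spats1 had weaker cKO peaks.

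The nearest peak of a cKO equal-length list was a median of 10410.5 bp away (436 to 450810 bp), within 5 kb for 181 regions (31.2%) and beyond 50 kb for 76 (13.1%). For cKO-only regions and WT peaks the median was 8888.5 bp, with 32.7% within 5 kb and 9.84% beyond 50 kb. The nearest cKO-only region was a median of 1439000 bp away, and 1 WT-only region had one within 5 kb.

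Every autosome and chromosome X had WT-only regions, and their share of merged regions ranged from 0.611% on chromosome 17 to 1.25% on chromosome 3. For all 20 chromosomes the exact 95% interval held the overall 0.908%. Another WT-only region within 100 kb was found for 56 (9.66%, 7.38 to 12.4%), against 12.5% (10.05 to 15.4%) of the cKO-only regions. With WT replicate 2 left out this share was 15.48%, with WT replicate 3 left out 18.5%, and with cKO replicate 1 or 2 left out 14.6% or 15%, over more regions in each case. The share that random placement would give was not computed. The 56 regions formed 25 groups of 2 and 2 groups of 3. The groups of 3 lay at Gnao1 (chr8:93734324-93862288) and at Ntrk3 (chr7:78085618-78243799). The closest pairs were inside Grin2b (chr6:136161708-136166192) and inside Ccnyl1, next to the Wnt receptor gene Fzd5 (chr1:64711235-64720159).

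The 580 regions had 519 different nearest genes, of which 464 had a single region. Ntrk3, the receptor gene for neurotrophin-3, had 4 WT-only regions among 31 merged regions nearest to it and 0 cKO-only regions. Dgki (a diacylglycerol kinase gene), Gnao1 (a G protein alpha subunit gene) and Trps1 (a GATA-type zinc-finger gene) had 3 each and 0 cKO-only regions, of 29, 16 and 19 merged regions. Magi1, a gene of a junctional scaffold protein, had 3 WT-only and 1 cKO-only of 36. These genes were picked for their number of WT-only regions. With 0.987% of all merged regions cKO-only, a count of 0 among so few is not told apart from that share. The gene bodies span 159 to 608 kb. Of the 4 Ntrk3 regions, that inside the gene (chr7:78243500-78243799) had no deposited cKO peak, while a region 93025 bp away had one in all 3 cKO lists.

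Genes of 16 lists for the embryonic cortex (394 genes) were nearest to 58 WT-only regions (10%), against 6.80% of all merged regions, 7.78% of cKO-only regions and 5.88% of regions of all 6 lists. Axon guidance and migration genes had the most, 20 regions at 16 of 51 genes. That is 3.45% (2.12 to 5.28%) of WT-only regions, against 1.59% of all merged regions, 1.88% of regions in 3 lists of both genotypes and 2.86% of cKO-only regions, which had 18. The 16 genes included the Slit receptor genes Robo1 and Robo2, the netrin receptor genes Dcc, Unc5b and Unc5d, the netrin gene Ntn4, the ephrin receptor genes Epha3, Epha4 and Epha7, Sema3a, Plxna1 and Dab1. Of the 20 regions, 9 lay inside the gene, 9 had no deposited cKO peak and 1 had a weaker one in all 3 cKO lists. In the other 15 lists the interval of the WT-only share held the share of all merged regions, and the intervals were not adjusted for the number of lists.

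Glutamate and GABA receptor genes had 6 regions at 5 of 39 genes (1.03%, 0.381 to 2.24%, against 0.529% of all merged regions). They included Grin2a, Grin2b with 2, Gria1 and Grm5, and 5 of the 6 lay inside the gene. Cadherin and teneurin genes had 8 at 6 of 29 genes (1.38%, against 1.23% of all merged regions), with 2 inside Tenm2 and 2 near to no gene, Cdh8 being the closest (1058098 bp from the nearer region). The Wnt list had 5 (0.862% against 0.522%), at Ryk, Lgr6, Ror2 and Znrf3. The BMP and TGF-beta list had 3 (0.517% against 0.509%), at Smad6, Smad1 and Smoc1, an antagonist gene. Rbpj, which encodes the DNA-binding effector of Notch, had 1 with no deposited cKO peak, 35643 bp away, the 1 region of the Notch list (0.172% against 0.238%). For these lists, in the order given, the shares of cKO-only regions were 0.635%, 0.794%, 0.635%, 0.317% and 0.476%.

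For the lists of cell types, shares of WT-only regions are again set against those of all merged regions. Upper-layer neuron genes had 4 regions (0.690% against 0.409%), among them regions inside Cux2 and Unc5d and 791612 bp from Pou3f2. Deep-layer genes had 1 (0.172% against 0.611%), inside Foxp2. Radial glia genes had 3 (0.517% against 0.451%), at Sox9, Ptprz1 and Ddah1, with the nearest 8770 bp from its gene. Patterning factor genes had 2 (0.345% against 0.232%), at Tfap2d and Dmrta1. Interneuron and ventral forebrain genes had 4 (0.690% against 0.276%), with 2 inside Meis2, 1 inside Zfhx3 and 1 at 286609 bp from Prox1. The shares of cKO-only regions were 0.635% for upper-layer, 0.635% for deep-layer, 0.476% for radial glia, 0% for patterning and 0.159% for interneuron genes. Intermediate progenitor and proneural genes, Cajal-Retzius and hem genes and oligodendrocyte genes had 0, which allows a share of up to 0.634% by the exact interval. Of all merged regions, 0.122%, 0.226% and 0.0517% were nearest to genes of these 3 lists, so a count of 0 is not told apart from the background. Vascular, microglial and meningeal genes had 1 (0.172% against 0.125%), inside Cx3cr1, a microglial receptor gene. Among Prdm16, its paralogs and partners, 1 region was found (0.172% against 0.169%), 128127 bp from Mecom (chr3:29822687-29823168), with WT -log10 p of 7.23, 6.04 and 5.54 and no deposited cKO peak.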

How the data were processed

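The data are 6 broad peak lists, 1 per H3K27ac library. The authors immunoprecipitated native chromatin cut by micrococcal nuclease, per the labels' protocols. The submitters' processing notes name the build mm10 and the tools MACS2 2.1.1, Bowtie2 2.2.8, cutadapt and FastQC. For parameters and the control, nothing is stated in what was read here. Each deposited peak has a score that was left aside, a fold enrichment ratio, a -log10 p and a -log10 q value. Ranks and list membership used these values only within a list. The order of the strongest regions compared -log10 p across the WT lists, although the lists differ in scale. For some named regions, WT and cKO values were also set side by side. The lists hold no reads, so depth is unknown, and input libraries were not analysed here.

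The members, the gene lists and the alternatives were chosen with earlier results of these data known. Peaks were ranked by -log10 p (ties by chromosome, then start), cut to the length of the shortest list, and merged where they overlapped or touched. Any overlap counted as present. Genes are 21887 protein-coding RefSeq genes of GRCm38.p6, the assembly behind mm10. The nearest gene is the overlapping body (the shortest of several) or the closest one. The promoter table gave the strand of 17492 of them and of no chromosome 18 gene, so the distance to either gene end was used in place of the planned start site. By start sites, 32 of 564 members off chromosome 18 (5.67%) lay within 2 kb. No genome was used, so exons and introns are not given. Where a share carries an interval, it is an exact 95% interval that covers counting error only. Other shares, among them most of those for gene lists, are given without an interval. Named regions were the 15 strongest by their lowest WT -log10 p, the 5 widest, up to 10 near gene ends, genes with 3 or more regions, up to 3 per gene list and those nearest to the limit; others are said to be chosen later or stand in the counts they belong to. Computations used pandas 2.3.3 and numpy 2.4.6 under Python 3.11.15, with intervals from scipy 1.17.1 and plots from matplotlib 3.10.9. Some members are not reported here by name. As a check of the code, peaks stronger than those of any member were planted at peak-free sites of the 3 deposited WT lists. Of these planted WT-only regions, 200 of 200 were recovered, which does not measure how well regions near the limit are found.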

Additional observations from a re-analysis of the deposited data

How the results depend on the processing

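Ranking by -log10 q or by fold enrichment and joining peaks up to 1 kb apart gave 578, 556 and 561 WT-only regions, holding 574, 502 and 555 of the 580. With 30000 peaks per list the count was 365, the median width 1342 bp, the share with another region within 100 kb 7.12% and the share with a peak in a deposited cKO list 99.5%. With 40000 peaks the last share was 88.1%. Requiring at least 50% of a region to be covered in each WT list left 260 regions, 5% of them with another within 100 kb. In batch A alone there were 1745 regions with a median width of 750 bp, 7.39% of them near a gene end and 22.3% with another within 100 kb. Over the 6 settings without a library, the count was 880 to 1192, the gene-end share 5.22 to 6.89%, the median width 701 to 955 bp, the share with another region within 100 kb 12.1 to 18.5% and the share with a deposited cKO peak 55.03 to 68.5%. With fewer lists the rule asks less, so higher counts are built in. The held-out differences were 30.6, 30.7 and 23.3 points with 30000 peaks, and 41.3, 59.5 and 0.878 points with the lists as deposited. No paired analysis was possible because no result comes from a fitted test to which a replicate block could be added, and the differences within same-numbered library pairs are given as values only. Absence of a peak says only that none passed the caller's limit in that list, and without reads the depth behind it is unknown.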
